A study of Schizocosa ocreata with 10 samples.

Results

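Brains of the wolf spider Schizocosa ocreata were examined for 7 genes whose RNA was far higher in one sex and whose predicted proteins had no match in the annotation used. The 7 genes, of 25922 with counts, were chosen by their measured levels, because all 5 male libraries lay apart from all 5 female libraries, or because a gene lay on the same contig as one that did so. They were also chosen as genes without a known match, and other genes that meet these conditions are not among the 7. A contig is a stretch of assembled transcript. By their own values, 6 genes were higher in males (Gene002150, Gene002151, Gene003610, Gene001739, Gene001740 and Gene005439) and 1 was higher in females (Gene014563). Differences between the sexes are therefore given as a description, with no test, while differences between life stages within a sex were not used in the choice and were tested.

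Each library was made from the polyadenylated RNA of 1 dissected brain of a wild-caught spider. The groups were 2 mature males, 3 immature (subadult) males, 3 mature females and 2 immature females, with no treatment. Mature spiders were dissected 24 hours after their molt to maturity, whereas the time left to the molt was not known for immature spiders. The authors left out 1 immature female and 1 mature male library for low coverage, and the dissected tissue may have held some esophagus.

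Sex-biased expression means that a gene is active in both sexes at different levels, and sex-limited expression that it is active in one sex alone. In most wolf spiders studied, females carry more X chromosomes than males and no Y chromosome is known, so a gene restricted to males need not lie on a chromosome that only males have. Known RNAs of this kind include the roX RNAs of male fruit flies and Xist of female mammals, which act in dosage compensation and encode no protein. No role is assigned here to the 7 spider genes, which are named by the identifiers of the deposited files.

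The 10 libraries held between 3481348 and 11789754 reads assigned to genes. Levels are given as CPM, that is, read counts scaled to a library of 1000000 reads, with library sizes adjusted by trimmed mean of M-values (TMM) factors that lay between 0.883 and 1.11. A list of 33 genes matching neuronal genes held between 0.314% and 0.507% of the reads in male libraries and between 0.267% and 0.649% in female libraries. The share of 25 genes matching muscle genes was 7.83% to 11.8% in males and 6.10% to 13.8% in females. The share of 7 genes matching germline genes such as vasa and tudor was 0.0221% to 0.0290% in males and 0.0181% to 0.0384% in females. For 5 genes matching the blood protein hemocyanin it was 0.0121% to 0.306% in males and 0.0105% to 1.58% in females. The sexes thus overlapped in each of these shares, and in a bulk sample fewer cells of a type and less RNA per cell cannot be told apart.

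The annotation gave none of the 7 genes an entry in any of the 9 columns that record matches, domains, orthologous groups or ontology terms. This follows from how the 7 were chosen. Of all genes with counts, 33.78% were without an entry in the same columns. Matches to NCBI nr, which the paper names among its databases, were not recorded in these columns. A match to a protein listed only there was therefore not checked. By the contig listed for each gene, the 7 genes were spread over 6 contigs. Only Gene002150 and Gene002151 lay on one contig, Contig12843, where Gene002150 took positions 2 to 481 of the forward strand and Gene002151 positions 1 to 480 of the reverse strand. They shared 479 nucleotides, or 99.79% of either coding sequence of 480 nucleotides. Gene003610 took positions 3 to 695 of Contig15361 and Gene005439 positions 2 to 916 of Contig18685, both on the forward strand. Gene014563 took positions 709 to 1068 on the reverse strand of Contig3738.

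Gene001739 and Gene001740 carry consecutive identifiers but were not listed on one contig. Gene001740 was the second reading frame of Contig12248, at positions 3658 to 4173 of the reverse strand. The third frame of that contig, at 1507 to 1887 of the same strand, was Gene001741, which is not among the 7. No gene of the table carried the first frame. The coding sequences listed on this contig came to 897 nucleotides, and the last position used was 4173. Gene001739 took positions 2 to 547 of a transcript assembled from the library of mature male 2 alone. Whether this transcript overlaps the first frame of Contig12248 was not checked, because no sequences were used here. The other 6 genes lay on contigs of the consensus assembly.

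Coding lengths ran from 360 nucleotides (Gene014563) to 915 nucleotides (Gene005439), against a median of 480 over all genes with counts and of 372 over those without a match. The frames of Gene002150, Gene003610, Gene001739 and Gene005439 opened within the first 3 positions of their contigs, so each may continue beyond the assembled sequence. No signal peptide was predicted for any of the 7, against 7.33% of all genes with counts. One was predicted for Gene005440, which shares 775 nucleotides with Gene005439 but reads the other strand of Contig18685. Positions are those on the assembled contigs, since no genome of this species was used here.

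Of the 24930 genes that passed a filter on low counts, 59 (0.237%) were higher in every male than in any female library and 89 (0.357%) were lower in every male than in any female library. All 7 genes passed the filter and are among them, which follows from how they were chosen, on these same libraries. For each such gene the gap was measured on the log2 CPM scale, with a prior count of 2, between the lowest library of the higher sex and the highest library of the lower sex. Among genes higher in males, Gene002150 had a gap of 5.50, Gene003610 of 4.93, Gene002151 of 3.99, Gene001740 of 3.21, Gene001739 of 3.15 and Gene005439 of 2.29. Gene005439 was the last of 9 genes with a gap above 2, a limit set after the gaps were seen, and none of the 9, on 6 contigs, had a match. For the genes of the 9 that are among the 7, the lack of a match follows from the choice. The next gene in order, Gene023607, had a gap of 0.78. Among genes lower in males, Gene014563 stood second with a gap of 2.90, and the gap of the third gene was 1.35.

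**Figure D1:**
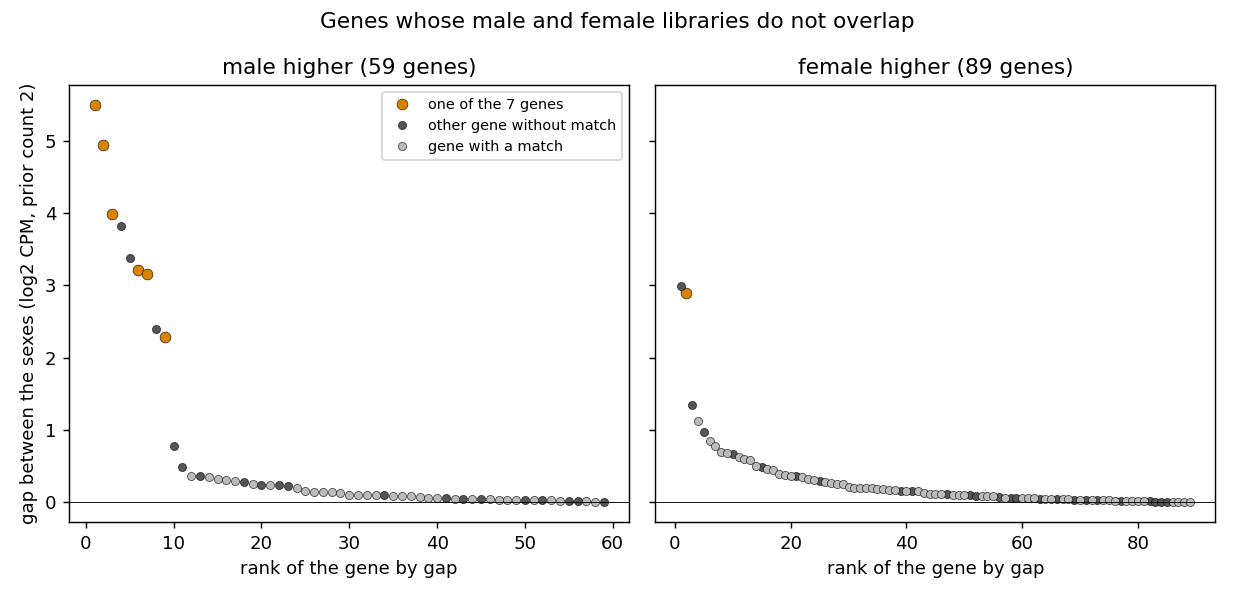
Gap between male and female libraries (log2 CPM, prior count 2) for every tested gene whose sexes do not overlap, ranked by gap, with genes higher in males on the left and genes higher in females on the right. The 6 orange points on the left lie between 2.29 and 5.50 and the 1 on the right at 2.90, while beyond the leading 9 genes on the left no gap exceeds 0.78.

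The other 3 genes among the leading 9 were Gene005524, Gene001741 and Gene005440, also without a match. Gene001741 and Gene005440 lay on contigs of genes among the 7, and only Gene005524 lay elsewhere. Gene005524 had 471 and 605 reads in mature males and 269, 299 and 446 in immature males, against 6, 4 and 0 reads in mature females and 37 and 3 in immature females. Among genes lower in males, Gene010491 had the largest gap, 3.00. It had 3 and 0 reads in mature males and 0, 1 and 0 in immature males, against 36, 60 and 63 in mature females and 124 and 121 in immature females. Gene025076, with a gap of 1.35, and Gene020668, with 0.97, were the next such genes without a match that were not among the 7. Of all 148 genes that separated the sexes, 34.5% were without a match, against 32.8% of all tested genes.

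Gene002150 was close to absent in females. It had 169 and 182 reads in mature males and 98, 123 and 130 in immature males, against 1, 0 and 1 in mature females and 1 and 1 in immature females. Male libraries lay between 15.2 and 20.5 CPM and female libraries between 0 and 0.109 CPM, so that the 702 reads of all males stood against 4 of all females. Scaled by library size, the male to female ratio was 198 (exact 95% interval 76.9 to 728). Intervals of this kind cover counting error only. In mature female 2, the smallest library, no read allows a level of up to 0.922 CPM (3 reads).

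Each stage held only 2 female reads of Gene002150, too few to compare the ratio between stages. The fitted log2 difference, male against female, was 7.43 over both stages and depends on the prior count, being 5.80 with a prior count of 2 in place of the smaller default.

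Gene002151, the reverse frame over the same stretch, followed Gene002150 closely. It had 146 and 155 reads in mature males and 85, 103 and 113 in immature males, against 0, 2 and 1 in mature females and 2 and 1 in immature females. The ratio of the sexes was 113 (51.6 to 309). In the 5 male libraries it had between 0.837 and 0.869 reads per read of Gene002150, with a coefficient of variation (CV, the SD as a percentage of the mean) of 1.56%. Counting error alone would give a CV of 12.7% if the reads of both frames had been counted independently. The counts of the pair are therefore not independent of each other, although both genes are kept in the counts of genes given here, and the strand of the transcript cannot be told from these counts.

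Gene003610 was likewise close to absent in females, and it lay on a contig of its own. It had 176 and 225 reads in mature males and 89, 107 and 142 in immature males, against 1, 0 and 0 in mature females and 4 and 0 in immature females. All 4 reads of the immature females came from immature female 2. The 5 reads of all females stood against 739 of all males, a ratio of 167 (71.0 to 514). Between mature males and mature females it was 454 (81.1 to 17988), resting on 1 female read. Between immature males and immature females it was 94.6 (36.6 to 349). The intervals leave out the spread between spiders, so no difference between stages is read from them. Its fitted log2 difference was 7.47 with the default prior count and 5.80 with a prior count of 2. It rests on few female reads, being 9.26 without immature female 2 and 8.44 without mature female 1.

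Gene001739 was the most abundant of the 6 genes higher in males and kept a measurable level in every female. It had 616 and 708 reads in mature males and 271, 339 and 367 in immature males, against 43, 11 and 27 in mature females and 33 and 19 in immature females. Males lay between 42.9 and 69.7 CPM and females between 2.08 and 4.61 CPM. The female level was 5.13% of the male level, which is a ratio of 19.5 (16.4 to 23.4). Its fitted log2 difference was 4.31.

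Gene001740, on Contig12248, had 121 and 136 reads in mature males and 52, 75 and 108 in immature males, against 7, 1 and 10 in mature females and 8 and 4 in immature females. The female level was 5.41% of the male level, with a ratio of 18.5 (12.8 to 27.7), close to that of Gene001739. The neighbouring frame Gene001741 had 49 and 50 reads in mature males and 11, 21 and 19 in immature males, and no read in any female. Pooled over all females, the counting interval of its ratio began at 45.3. That interval leaves out the spread between spiders, so the frames are not compared by it. In single female libraries the male level of Gene001741 was too low to compare the frames, and the difference between them was not tested.

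Gene005439, the longest of the 7, had 66 and 67 reads in mature males and 38, 44 and 77 in immature males, against 10, 2 and 6 in mature females and 4 and 2 in immature females. The female level was 7.30% of the male level, with a ratio of 13.7 (9.03 to 21.7). Between mature males and mature females the ratio was 8.37 (5.10 to 14.6) and between immature males and immature females 29.7 (13.3 to 82.1). As these intervals leave out the spread between spiders, no difference between stages is read from them. Its partner frame Gene005440 had 80 and 76 reads in mature males and 40, 46 and 52 in immature males, against 9, 0 and 7 in mature females and 6 and 3 in immature females. In males there were 0.675 to 1.21 reads of Gene005440 per read of Gene005439, with a CV of 20.2%, close to the 19.2% that independent counting around a fixed proportion would give. On Contig12843 the CV was instead far below that of independent counting.

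Gene014563 was the only one of the 7 that was lower in males. It had 15 and 15 reads in mature males and 6, 7 and 14 in immature males, against 128, 59 and 315 in mature females and 290 and 190 in immature females. Males lay between 1.17 and 1.64 CPM and females between 13.7 and 28.4 CPM. The male level was 6.54% of the female level, a female to male ratio of 15.3 (11.7 to 20.3). This held within stages, at 6.77% between mature males and mature females and 6.30% between immature males and immature females. Its fitted log2 difference, male against female, was -3.90, and -3.70 with a prior count of 2.

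**Figure D2:**
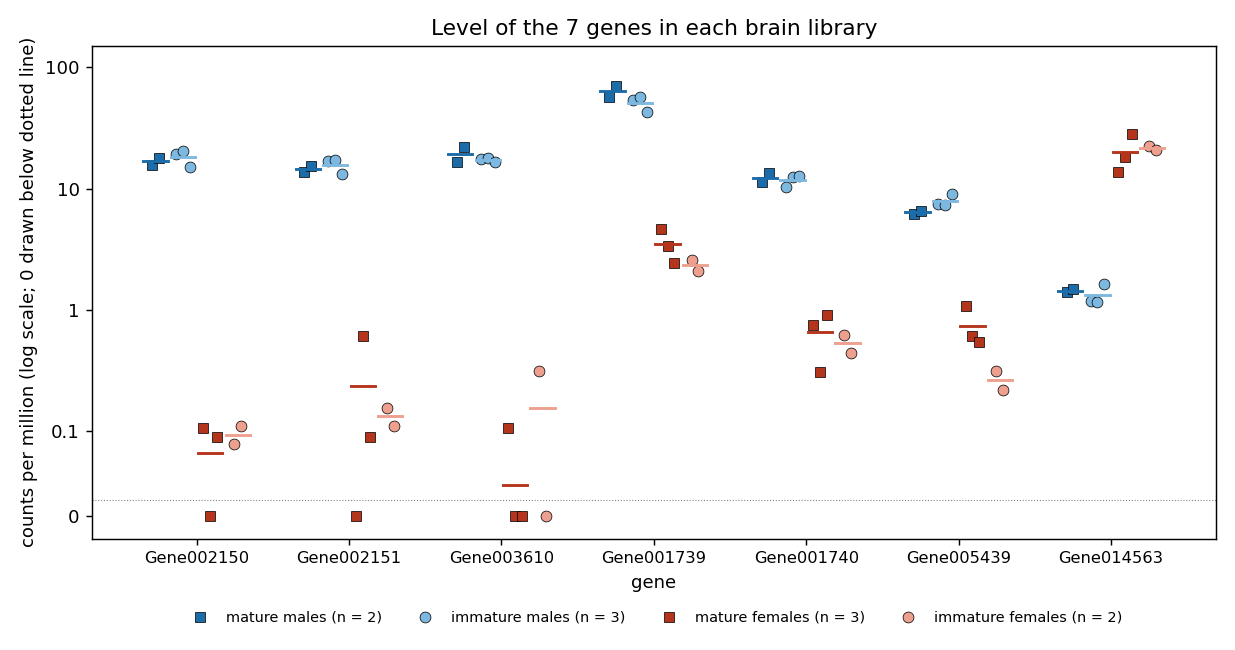
CPM of the 7 genes in each library (log axis, with libraries at 0 drawn below the dotted line), where points are libraries and short lines are group means. The male libraries of the first 6 genes lie between 6.15 and 69.7 CPM, above every female library, and for Gene014563 the males lie between 1.17 and 1.64 CPM, below every female library.

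By the level left in the other sex the genes fell into 2 sets, a division made after the values were seen. Gene002150, Gene002151 and Gene003610 had between 0.506% and 0.885% of the male level in females. For Gene001739, Gene001740, Gene005439 and Gene014563 the lower sex had between 5.13% and 7.30% of the level of the higher sex. Within stages these ranges widened, with 1.06% for Gene003610 in immature brains, and 3.37% in immature and 11.9% in mature brains for Gene005439. Of the other named genes without a match, Gene005524 (2.12%), Gene010491 (1.12%) and Gene020668 (1.07%) lay between the sets. Gene005440 (7.55%) and Gene025076 (10.7%) lay above them, and Gene001741 had no female read. Leaving out any single library left all 7 genes without overlap between the sexes, which follows from the choice, since fewer libraries must then be apart. Thinning every library to 3481348 reads also left them without overlap, as did scaling by library totals or by RLE size factors. These runs used the same libraries as the choice of genes.

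Levels between genes were compared per kilobase of the coding sequence listed for each gene. The paper assigned reads to clusters of similar coding sequences, so the listed length may differ from that of the sequence counted. The order below has this limit, and the counts of Gene002150 and Gene002151 are not independent. In males the order was Gene001739 with 103 ± 17.6 CPM per kilobase (SD, n = 5), Gene002150 with 37.0 ± 4.77, Gene002151 with 31.7 ± 3.77, Gene003610 with 26.1 ± 3.37, Gene001740 with 23.3 ± 2.39 and Gene005439 with 8.0 ± 1.19. The lowest male library of Gene001739, at 78.5, lay above the highest of Gene002150, at 42.8, and the highest of Gene005439, at 9.83, lay below the lowest of Gene001740, at 19.9. The 4 genes between these overlapped with their neighbours. In females Gene014563 reached 57.6 ± 15.1 CPM per kilobase (SD, n = 5). The median over all tested genes was 10.1 in males and 9.75 in females, so that of the 6 genes higher in males only Gene005439 was below the male median, with 41.4% of tested genes lower.

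Among males the 6 genes varied little, in values that the choice of genes had used. Their CVs over the 5 male libraries lay between 10.3% (Gene001740) and 17.1% (Gene001739), against a median of 31.9% over all tested genes. For Gene001740, 3.77% of tested genes had a lower CV, and for Gene001739 15.6%. The tested genes were not matched to the 6 by level, so no trait of the 6 is drawn from this. Of the other leading genes higher in males, Gene005440 had a CV of 9.82%, Gene005524 of 10.9% and Gene001741 of 36.8%. Gene014563 varied more, with a CV of 26.3% over the 5 female libraries against a median of 36.3%.

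**Figure D3:**
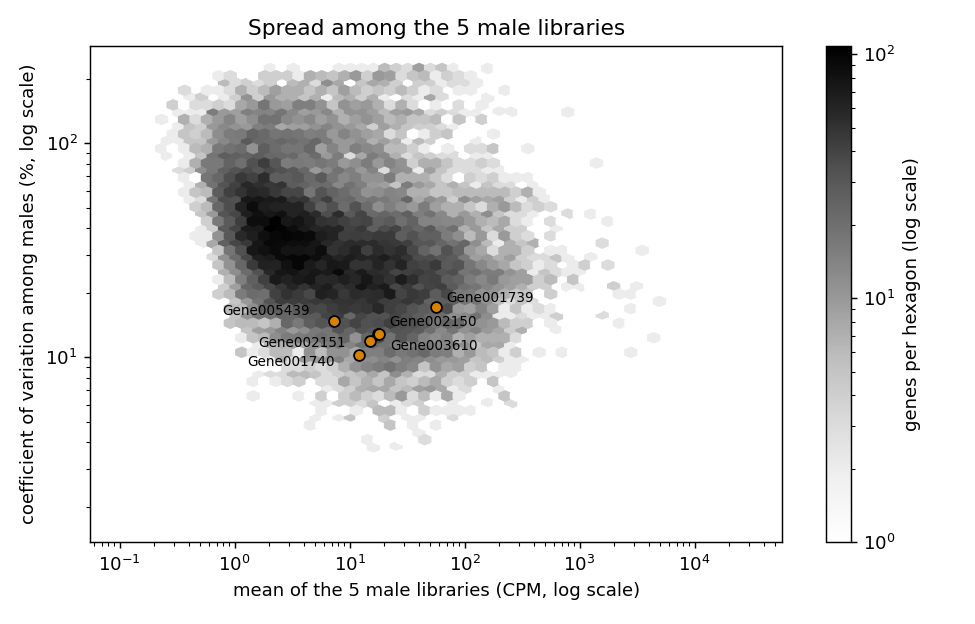
Coefficient of variation of CPM among the 5 male libraries against the mean male CPM, both on log axes, with grey hexagons for tested genes with a mean above 0.1 CPM and orange points for the 6 genes higher in males. The 6 points lie between 10.3% and 17.1%, toward the lower edge of the cloud.

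The reads of the male genes could also be set against each other within a library. Gene003610 had between 0.870 and 1.24 reads per read of Gene002150, with a CV of 14.3%, where counting error alone would give 12.3%. Gene001740 had between 0.531 and 0.831 reads per read of Gene002150, with a CV of 17.2% against 13.8% from counting error. For Gene005439 the range was 0.358 to 0.592, and the highest value, in immature male 3, lay apart from the other 4, which reached 0.391. The CV was 23.3%, against 16.1% from counting error.

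The ratios of Gene001739 to Gene002150 lay apart by stage in these 5 libraries. Gene001739 had 3.64 and 3.89 reads per read of Gene002150 in mature males, against 2.77, 2.76 and 2.82 in immature males. Over all 5 males the CV was 17.2%, against 9.98% from counting error. Gene001741 had 0.405 and 0.368 reads per read of Gene001740 in mature males, against 0.212, 0.280 and 0.176 in immature males. These ratios were noticed in the data among several compared and were not tested. How many other pairs of genes lie apart in so few libraries was not counted.

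**Figure D4:**
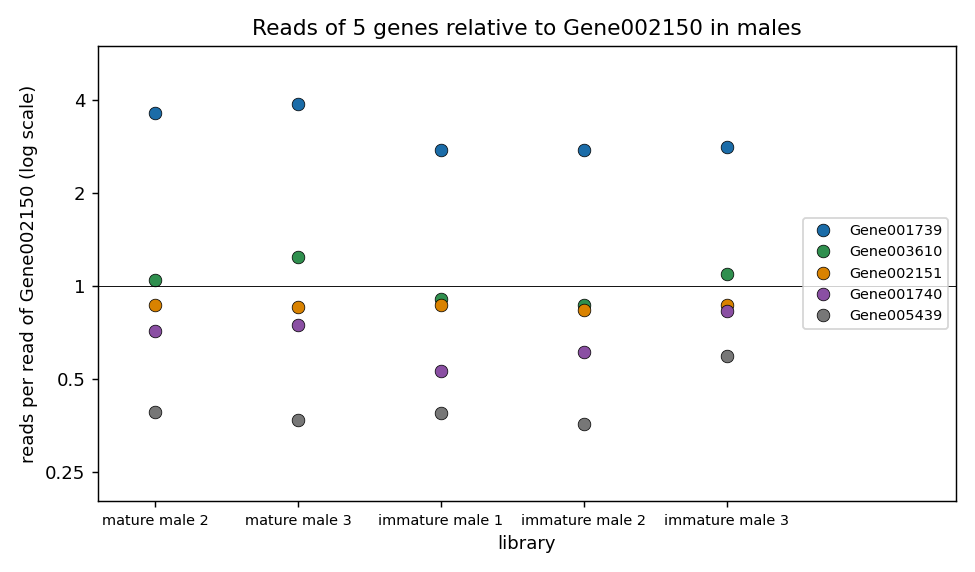
Reads of 5 genes per read of Gene002150 in each male library (log axis), one point per gene and library. Gene002151 stays between 0.837 and 0.869, and Gene001739 lies at 3.64 and 3.89 in the mature males and between 2.76 and 2.82 in the immature males.

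Whether the genes differed between mature and immature brains was tested within each sex, which the choice of genes had not used. Within males, edgeR's quasi-likelihood test called 0 of the 7 genes (Benjamini-Hochberg adjusted p between 0.875 and 0.984), where it called 0.00802% of all tested genes, 2 in number. None of the 7 had an unadjusted p under 0.05, and neither the likelihood ratio test nor DESeq2 called any. The log2 fold changes, mature over immature, ran from -0.32 (Gene005439) to 0.32 (Gene001739) with a median of 0.06, against -0.01 over all tested genes. The median size of a change over all tested genes was 0.35, regardless of sign.

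For Gene001739 the mature males had 57.4 and 69.7 CPM and the immature males 53.5, 56.6 and 42.9 CPM, and the groups did not overlap. Its log2 fold change was 0.32 (SE 0.29, 95% interval -0.34 to 0.98, and an edgeR adjusted p = 0.875). How many tested genes likewise lack overlap between these groups was not counted. For Gene002150 the mature males had 15.8 and 17.9 CPM and the immature males 19.4, 20.5 and 15.2 CPM, and the change was -0.12 (SE 0.30, interval -0.80 to 0.55). For Gene003610 the change was 0.15 (interval -1.03 to 1.33), for Gene001740 0.06 (interval -0.68 to 0.81) and for Gene005439 -0.32 (interval -1.07 to 0.42). Over the 7 genes the wider side of these intervals reached between 0.80 and 1.33 log2 units, so a lack of difference was not shown. Gene001741 was at 4.57 and 4.92 CPM in mature males against 2.17, 3.51 and 2.22 CPM in immature males, a change of 0.85 on the log2 scale (SE 0.44) that edgeR did not call (adjusted p = 0.762).

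Within females, 0 of the 7 genes were called, as were 0% of all tested genes, by the quasi-likelihood test of edgeR, although before adjustment 2607 tested genes had p under 0.05. DESeq2 called 376 genes and edgeR's likelihood ratio test 294, and neither called any of the 7. Gene014563, the gene higher in females, had 13.7, 18.1 and 28.4 CPM in mature females and 22.6 and 20.8 CPM in immature females, so the immature values lay inside the mature range. Its log2 fold change was -0.11 (SE 0.33, interval -0.86 to 0.64, adjusted p = 0.923 from edgeR).

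In females, 1 of the 7 genes had an unadjusted p under 0.05, Gene005439 at its low female level. It had 1.07, 0.615 and 0.542 CPM in mature females against 0.312 and 0.219 CPM in immature females, without overlap, but from 18 and 6 reads in all. The fitted log2 fold change was 1.44 (SE 0.46, edgeR adjusted p = 0.438). The share of tested genes without overlap between the female stages was not counted. The overlapping frame Gene005440 had 0.965, 0 and 0.632 CPM in mature females and 0.468 and 0.328 CPM in immature females, where the groups overlapped. For the other genes higher in males, the fitted changes in females rest on between 4 and 133 reads, with 6 or fewer for Gene002150, Gene002151 and Gene003610.

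Whether the sex difference itself changed between stages was tested as the interaction of sex and stage. The quasi-likelihood test of edgeR called 0 of the 7 genes (adjusted p of 1.00 each) and 0% of all tested genes, of which 798 had p under 0.05 before adjustment. DESeq2 called 31 genes and edgeR's likelihood ratio test 14, none of them among the 7. Gene005439 was again the only one with an unadjusted p under 0.05, with an interaction of -1.76 on the log2 scale (SE 0.56), that is, a smaller excess in males among mature than among immature brains. For Gene001739 the interaction was -0.25 (interval -1.23 to 0.73) and for Gene014563 0.20 (interval -0.95 to 1.36).

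**Figure D5:**
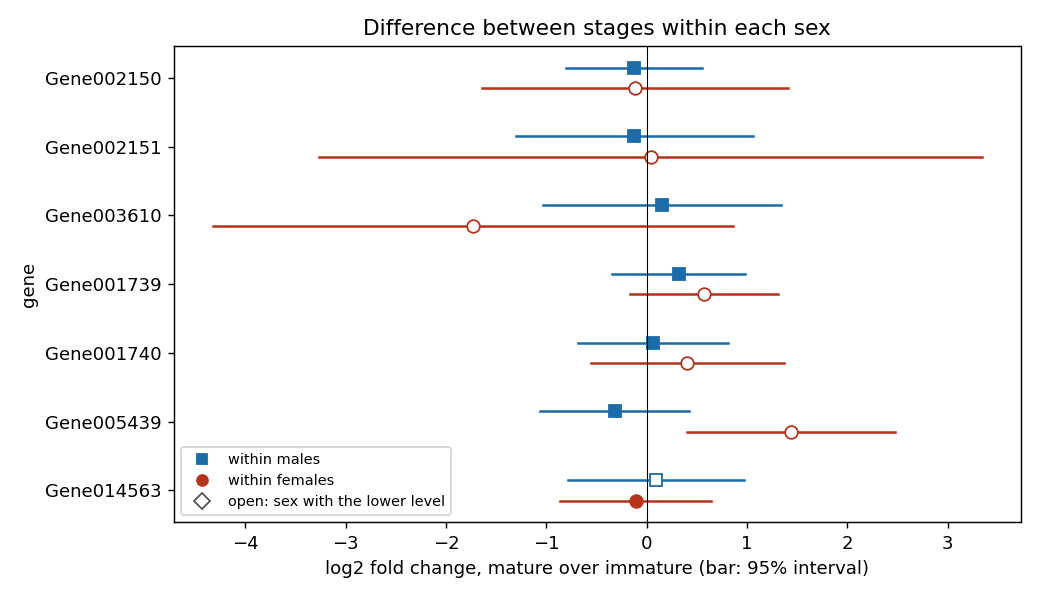
Log2 fold change of the 7 genes, mature over immature, within males (blue) and within females (red), with 95% intervals from the quasi-likelihood fit and open symbols for the sex in which the gene is low. In the higher sex the points lie between -0.32 and 0.32 and every interval includes 0, and Gene005439 in females, at 1.44, is the only interval that does not.

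For each gene, the tested genes on other contigs with the most similar pattern were found by the Pearson correlation of log2 CPM over the 10 libraries. The values are a description that mainly records the difference between the sexes. The nearest to Gene002150 were Gene003610 (r = 0.992), Gene001740 (r = 0.992) and Gene001739 (r = 0.987). The nearest to Gene005439 were Gene001739 (r = 0.983), Gene001740 (r = 0.972) and Gene002150 (r = 0.969). All genes nearest to the 6 male genes were themselves among the 6, with the exception of Gene001741, which came after 2 of them for Gene002151 (r = 0.972) and for Gene001739 (r = 0.986). No gene with a known match was among them.

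For Gene014563 the nearest was Gene010491 (r = 0.958), the gene without a match that had the largest gap toward females. It was followed by Gene021416 (r = 0.955), with a best fruit fly match to trol, the gene for the matrix proteoglycan perlecan, but another protein as its best Swiss-Prot match, and Gene000947 (r = 0.923), matching Tollo, a Toll-family receptor. Their excess in females was far smaller than that of Gene014563, since the male level was 49.7% of the female level for Gene021416 and 36.0% for Gene000947.

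Genes matching known regulators of sex were set beside the 7. The list held 18 tested genes, with matches to Sex-lethal, transformer 2, fruitless, intersex, a gene of the dmrt family, male-specific lethal 1, 2 and 3, maleless and males absent on the first (mof), among others. These take part in sex determination or dosage compensation in Drosophila. None of the 18 separated the sexes, against 0.237% and 0.357% of all tested genes in the 2 directions, and the quasi-likelihood test called none of them between stages in either sex. Of the 7 germline matches, none separated the sexes, and of 86 tested genes with the chitin-binding domain of cuticle proteins 1 did so (Gene016420, lower in males).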

How the data were processed

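Per the paper's methods and the labels, the authors trimmed paired reads with Trimmomatic 0.32, built transcripts de novo, clustered the predicted coding sequences into genes and mapped the reads back with BWA 0.6.1-r104. They deposited read counts per gene and library without normalization, and an annotation of each gene. Whether strand was used and how reads fitting more than one gene were treated is not given in the sources used here. The annotation of 14278 genes stood 1 column to the left of its headings and was moved back.

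The software was edgeR 4.0.16 and DESeq2 1.42.0 under R 4.3.3. filterByExpr (minimum count 10) kept 24930 of 25922 genes. One quasi-likelihood model with TMM factors and a mean for each of the 4 groups took in all 10 libraries. Calls needed a Benjamini-Hochberg adjusted p under 0.05. The SE is the size of the log2 fold change over the square root of F, and intervals are built from it. The p of the test can exceed the one such an interval implies, since it is not allowed below that of a Poisson model. Ratios of the sexes are pooled counts over pooled effective library sizes, with exact binomial (Clopper-Pearson) 95% intervals. The tests were also run on simulated counts with large changes. That run does not show whether changes as small as those seen here would be called.

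Named were the 7 genes, other genes on their contigs, the 3 most correlated genes of each, and the 3 genes without a match with the largest gap per direction. Gene023607 and Gene016420 were named after their values were seen. The 7 genes and the lists were chosen with earlier results of these data known. Each library is 1 spider, so p-values reflect differences between individuals, 2 or 3 per group. Alternatives tried were no filter, RLE size factors, a replicate block, DESeq2, the likelihood ratio test, only the groups compared, thinning, CPM without TMM, 1 gene per contig, another prior count and leaving out each library.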

Additional observations from a re-analysis of the deposited data

Results flagged for a closer look

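For each of the 7 genes, the highest and the lowest library among the 5 males and among the 5 females were compared with their nearest neighbour, 14 groups in all. In 3 groups the gap passed Dixon's critical value of 0.71 of the range. The nominal rate of 1 group in 20 does not apply to these groups. The choice of genes had used their values, low counts take few values, and each group mixes the stages. Gene003610 stood at 22.1 CPM in mature male 3, while the next highest male library was at 17.9 CPM. The others concerned the smallest library, mature female 2. Gene002150 was at 0 CPM there, with 0 reads against 1 read in each other female library, and Gene002151 was at 0.615 CPM there, from 2 reads. Both lie under the 3 reads needed for a measurable level, and the counts of these overlapping frames are not independent.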

How the results depend on the processing

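Separation of the sexes was recounted for the 7 genes under thinning, CPM without TMM, RLE size factors and leaving out each library. All 7 separated the sexes each time, which for left-out libraries follows from the choice. None was called between stages or for the interaction by the likelihood ratio test or DESeq2, or with RLE size factors, no filter or the replicate block. The same held without single libraries of the groups of 3, and between stages with only the groups compared. Other counts moved. The likelihood ratio test called 129 genes between stages in males, 294 in females and 14 for the interaction, and DESeq2 called 255, 376 and 31, against 2, 0 and 0 in the quasi-likelihood test. With only the groups compared, 0 genes were called in males and 1 in females, and with the replicate block likewise 0 and 1. Same-numbered libraries did not deviate together throughout (r between -0.361 and 0.173). In groups of 2 the deviations mirror each other, so these values cannot tell whether libraries were handled together. The labels name no pairs, and the numbers were not taken as pairs. With the block, the change of Gene014563 between stages in females turned to 0.00966. Without single libraries, genes were filtered anew. The calls then ranged from 0 to 112 in males (112 without immature male 2, 78 without mature male 3, 0 without immature male 1 or 3), from 0 to 49 in females (49 without immature female 3) and from 0 to 7 for the interaction (7 without mature male 3). Genes separating the sexes numbered 202 to 439 (439 without immature female 2), since fewer libraries must be apart, against 148 with all 10. Some changes between stages, in the sex with the higher level, turned sign without 1 library. They ranged from -0.25 to 0.0184 for Gene002150, from -0.24 to 0.0104 for Gene002151 and from -0.0821 to 0.41 for Gene003610. For Gene001740 the range was -0.0690 to 0.24 and for Gene014563 -0.46 to 0.11. At this depth a level under 3 reads was not measurable, which is 0.234 to 0.922 CPM in female libraries.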
